A study of Mus musculus with 4 samples.

Results

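Polycomb repressive complex 1 (PRC1) was followed in the frontonasal prominence (FNP) through 10 genes that encode its catalytic core: Rnf2, Ring1, Bmi1, Pcgf1, Pcgf2, Pcgf3, Pcgf5, Pcgf6, Rybp and Yaf2. They were taken by symbol from the gene table of the study. All 10 had a row among the 33708 rows of the table, and all 10 passed the filter of 10 reads in either genotype or both, which kept 15376 genes, called the used genes here. The FNP, the embryonic tissue that forms the nose and snout, was dissected from 4 mouse embryos of the FVB/NJ strain at E10.5 with 29 somites. Smchd1+/+ embryos (WT) numbered 2, labelled as 1 female and 1 male, although the study's supplement names both as female. The other 2, both labelled as male, were homozygous for the missense allele MommeD43 of Smchd1 (MD43), which was found in a chemical mutagenesis screen. Every cell of an MD43 embryo carries the allele. The comparison asked which transcripts differ in the developing face between the genotypes.

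PRC1 is a chromatin complex that keeps developmental genes silent, by adding ubiquitin to histone H2A and by compacting chromatin. RING1B (Rnf2) or RING1A (Ring1) is the ubiquitin ligase of every PRC1 complex, and 1 of 6 PCGF proteins binds it and sets the kind of complex. Canonical PRC1 holds PCGF2 or BMI1 with a CBX protein that reads the mark left by PRC2, whereas variant PRC1 holds RYBP or YAF2, which compete with CBX proteins for the same place on the ligase. SMCHD1 also acts in silencing, and its placement on the inactive X chromosome is known to depend on the PRC1 mark.

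The table gives 1 value per gene and genotype in log2 RPKM, the log2 of reads scaled by transcript length and by library size, and each value merges the 2 libraries of the genotype. The values of single embryos were therefore not analysed here. No spread between embryos could be computed from the merged values, and no difference was tested here. The study ran its own test of differential expression on FNP samples, which was not used. Read numbers below are the geometric mean over the 2 libraries of a genotype, recovered from the merged value. The standard error (SE) given with each difference covers counting error only and is a lower limit. The depth recovered was 22328791 reads for MD43 and 16055882 for WT. Smchd1 itself stood at 3.31 in WT and 3.30 in MD43 (log2 RPKM), a difference of -0.01 ± 0.02 (SE), which does not check the labels, since a missense allele need not alter the transcript.

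None of the 10 PRC1 genes differed by 1.5-fold, or by a smaller threshold of 0.32 on the log2 scale, in either direction. Among all used genes, 4.23% were at least 1.5-fold higher and 6.43% at least 1.5-fold lower in MD43, and 10.3% were higher and 13.9% lower by at least the smaller threshold. All 10 PRC1 genes had over 100 reads in each genotype, and among the 10757 genes of which that was true, called the well-covered genes here, 0.576% were at least 1.5-fold higher and 1.78% at least 1.5-fold lower. The 10 differences (MD43 minus WT, log2) ran from -0.18 for Rnf2 to 0.09 for Pcgf6, with a median of -0.03 beside 0.01 for all used genes. With the values corrected for GC content and transcript length, the median of the 10 genes was 0.01. There were 8 genes with a lower and 2 with a higher value in MD43. Only Rnf2, Ring1 and Pcgf6 had a 95% counting interval that did not include 0. Bmi1, Pcgf3 and Rybp changed sides under the correction for GC content and length. The summed level of the 10 genes was 146 RPKM in WT and 141 RPKM in MD43. In bulk tissue, fewer cells of a type and less RNA per cell cannot be told apart.

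**Figure D1:**
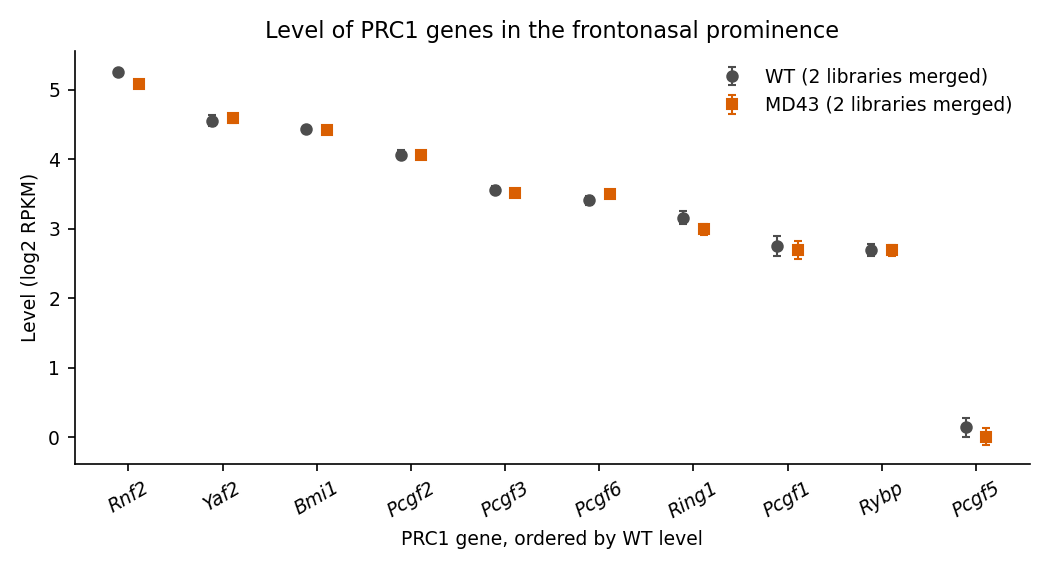
Level of each PRC1 gene (log2 RPKM, vertical axis) in WT (circles) and MD43 (squares), each point 1 merged value of 2 libraries, with bars for the 95% counting interval. With the merged exon length used here the order from Rnf2 to Pcgf5 is the same in both genotypes. Pcgf5 lies far below the others. With the longest transcript the order differed between genotypes only among Yaf2, Bmi1 and Pcgf2, which then lay within counting error of each other.

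With the merged exon length behind the table's values, the order of the 10 levels, which are per length, was the same in both genotypes: Rnf2, Yaf2, Bmi1, Pcgf2, Pcgf3, Pcgf6, Ring1, Pcgf1, Rybp and Pcgf5. Neighbours that did not differ beyond counting error (95% interval) were Pcgf1 and Rybp in both genotypes, 0.06 ± 0.09 apart in WT and 0.01 ± 0.08 in MD43, and Pcgf3 and Pcgf6 in MD43, 0.01 ± 0.04 apart. In WT, Rnf2 had a higher level than 91.2% of the used genes and Pcgf5 than 22.3% of them. The middle of the order depends on the transcript length used. With the longest transcript in place of the merged exons, Rnf2 stayed 1st, Rybp 9th and Pcgf5 10th in both genotypes, but the order was no longer the same in both. Yaf2 then ranked 4 in WT and 2 in MD43, Bmi1 ranked 2 in WT and 3 in MD43, and Pcgf2 ranked 3 in WT and 4 in MD43. These 3 levels lay between 4.56 and 4.58 in WT and between 4.56 and 4.59 in MD43. Each had a counting SE of 0.02 to 0.04, so their order was not resolved beyond counting error in either genotype.

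The sequences of the ligase genes bear on how well their reads can be kept apart. Rnf2 (ENSMUSG00000026484) lies at chr1:151458004-151500955 on the minus strand and Ring1 (ENSMUSG00000024325) at chr17:34020792-34024680 on the minus strand, both protein coding in the GENCODE M21 annotation of GRCm38. The longest run of bases identical between their coding sequences, shown because it is far shorter than a 75-base read, is 14 bases long and falls within 1 exon of each gene (chr1:151471669-151471682 and chr17:34021714-34021727). Capitals mark the identical bases, read 5′ to 3′ in the direction of the coding sequence.
Rnf2 and Ring1: AAGCAGTACACCAT

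Rnf2 had the highest level of the 10 genes. It stood at 5.25 in WT (2525 reads) and 5.08 in MD43 (3109 reads), and the MD43 value was lower by 1.13-fold (-0.18 ± 0.03 log2, counting SE; 95% counting interval -0.23 to -0.12). A difference at least as large in either direction was found in 45.6% of the used genes and in 33.6% of the well-covered genes. With the values corrected for GC content and transcript length the difference was -0.05. The 3′ part of Rnf2 shares 158 exonic bases with Trmt1l on the opposite strand (665 WT reads and 788 MD43 reads), in which 1.97% of the 75-base words of Rnf2 occur. The part of these reads in the Rnf2 value was not tested.

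Ring1, the second ligase gene, stood at 3.16 in WT (465 reads) and 2.99 in MD43 (576 reads). The MD43 value was lower by 1.12-fold (-0.17 ± 0.06; 95% counting interval -0.29 to -0.04), and 36.0% of the well-covered genes differed at least as much. None of its 75-base words occurs in another gene. As deposited, Rnf2 and Ring1 were the members with the lowest values relative to WT. Under the correction Ring1 was the lowest, at -0.19, but Pcgf1 (-0.06) was slightly lower than Rnf2 (-0.05). The ratio of Rnf2 to Ring1 was close to equal in both genotypes, 4.27 in WT and 4.24 in MD43, a log2 shift of -0.01 ± 0.07. Under the correction for GC content and length that shift was 0.14. Rnf2 made up 81.0% of the summed RPKM of the ligase genes in WT and 80.9% in MD43, and that sum was 47.0 RPKM in WT and 41.7 RPKM in MD43.

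Promoter sequence was matched for 7 of the 10 genes (Rnf2, Ring1, Bmi1, Pcgf2, Pcgf3, Pcgf5 and Pcgf6), in RefSeq windows of 300 bases around a transcript start (GRCm38.p6). A CpG-rich window, with at least 50% G or C and an observed-to-expected CpG ratio of at least 0.6, was found for 6 of the 7, beside 33.5% of all 32851 windows. The exception was Pcgf2, with a ratio of 0.362, whose RefSeq start lies 849 bases from the gene start in GENCODE. The motif CACGTG, an E-box, was found in Bmi1 and Pcgf2 and in 7.15% of all windows. The E2F-type motif GGCGGGAA was found in none of the 7, beside 2.19% of all windows. Both motifs were searched on both strands, and no match says only that these letters are not in these windows. The 250 bases before the start are shown for both ligase genes, which had the lowest uncorrected values in MD43 relative to WT, and for Pcgf5, which had the lowest level. They are chr1:151500992-151501241 (minus strand, 20 CpG), chr17:34024681-34024930 (minus strand, 30 CpG) and chr19:36348079-36348328 (plus strand, 23 CpG), read 5′ to 3′ toward the start with each CpG in capitals. All 3 are dense in CpG, including that of Pcgf5.
Rnf2: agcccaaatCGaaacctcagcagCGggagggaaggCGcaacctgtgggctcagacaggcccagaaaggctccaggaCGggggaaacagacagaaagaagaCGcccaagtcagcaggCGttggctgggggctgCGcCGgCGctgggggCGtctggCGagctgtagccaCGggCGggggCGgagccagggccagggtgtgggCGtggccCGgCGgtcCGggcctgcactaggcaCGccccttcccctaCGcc
Ring1: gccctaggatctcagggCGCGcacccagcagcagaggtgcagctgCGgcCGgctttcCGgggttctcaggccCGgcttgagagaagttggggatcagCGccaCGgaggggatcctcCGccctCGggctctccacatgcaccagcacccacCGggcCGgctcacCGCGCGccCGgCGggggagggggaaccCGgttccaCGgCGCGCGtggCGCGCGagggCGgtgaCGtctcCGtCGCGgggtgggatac
Pcgf5: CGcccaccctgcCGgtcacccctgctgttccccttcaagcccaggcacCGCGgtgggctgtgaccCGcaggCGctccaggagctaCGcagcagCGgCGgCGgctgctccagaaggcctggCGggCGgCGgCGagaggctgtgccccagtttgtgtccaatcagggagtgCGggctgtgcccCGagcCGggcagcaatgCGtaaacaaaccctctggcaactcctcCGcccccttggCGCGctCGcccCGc

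Bmi1 and Pcgf2 encode the PCGF proteins of canonical PRC1. Bmi1 (ENSMUSG00000026739, chr2:18677018-18686629, plus strand) stood at 4.43 in WT (1377 reads) and 4.42 in MD43 (1903 reads), a difference of -0.01 ± 0.04. The corrected value was 0.10, on the other side of 0. Of its 75-base words, 10.1% also occur in the processed pseudogene Gm5946, which was not analysed here, so its level is uncertain by reads that the counting may have placed in either gene. Pcgf2 (ENSMUSG00000018537, chr11:97688823-97700497, minus strand), also known as Mel18, had nearly the same value in both genotypes, 4.06 in WT (946 reads) and 4.06 in MD43 (1312 reads), with a difference of -0.003 ± 0.04. The ratio of Bmi1 to Pcgf2 was 1.29 in both genotypes, with a log2 shift of -0.01 ± 0.06 that was 0.12 under the correction.

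Pcgf1, Pcgf3, Pcgf5 and Pcgf6 encode PCGF proteins found in variant PRC1. PCGF1 forms the complex with KDM2B, which binds unmethylated CpG islands. Pcgf1 (ENSMUSG00000069678, chr6:83077869-83080855, plus strand) stood at 2.75 in WT (179 reads) and 2.70 in MD43 (239 reads), a difference of -0.06 ± 0.10. It had the fewest reads of the 10 genes and so the widest counting interval, -0.25 to 0.14, and 9.28% of its 75-base words also occur in the processed pseudogene Gm8930.

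PCGF3 and PCGF5 form closely related complexes that are known for starting Polycomb silencing on the inactive X chromosome. Pcgf3 (ENSMUSG00000033623, chr5:108461232-108506976, plus strand) stood at 3.56 in WT (1810 reads) and 3.52 in MD43 (2437 reads), a difference of -0.05 ± 0.03 that was 0.03 under the correction. Pcgf5 (ENSMUSG00000024805, chr19:36348309-36460970, plus strand) was by far the lowest of the 10, at 0.14 in WT (224 reads) and 0.01 in MD43 (284 reads). Its difference of -0.13 ± 0.09 had a counting interval that included 0, -0.31 to 0.05, and was -0.02 under the correction. The low level of Pcgf5 rests on reads spread over 12629 merged exonic bases, and with the longest transcript of 6443 bases it was 1.11 in WT and 0.98 in MD43, still the lowest. The level of Pcgf3 was 10.7 times that of Pcgf5 in WT and 11.4 times in MD43, a log2 shift of 0.09 ± 0.10.

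PCGF6 belongs to the complex with the DNA-binding proteins MGA, MAX and E2F6. Pcgf6 (ENSMUSG00000025050, chr19:47033617-47050906, minus strand) had the highest value in MD43 relative to WT among the 10 genes, 3.41 in WT (857 reads) and 3.50 in MD43 (1272 reads). The difference of 0.09 ± 0.05 (95% counting interval 0.01 to 0.18), or 1.07-fold, was 0.16 under the correction. The uncorrected size was exceeded in size by most genes: 59.4% of the well-covered genes differed at least as much. Rnf2, Ring1 and Pcgf6 were the 3 members whose counting interval did not include 0, and their differences were 6.43, 2.62 and 2.08 counting SE in size. Since this error leaves out the variation between embryos, it does not show a difference between genotypes.

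**Figure D2:**
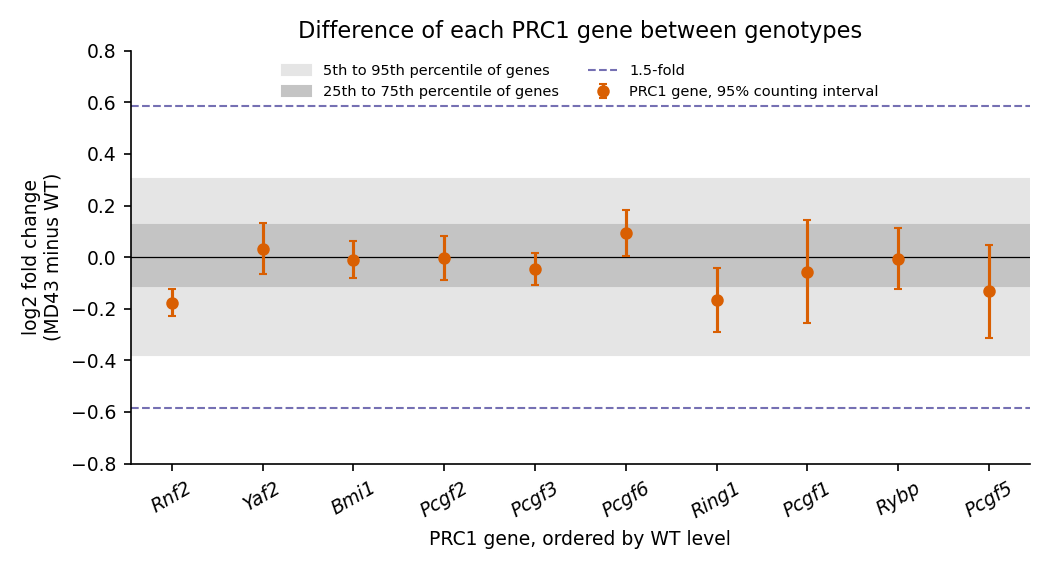
Difference of each PRC1 gene between genotypes (log2 fold change, MD43 minus WT, vertical axis) with its 95% counting interval, over bands that hold the 25th to 75th (-0.11 to 0.13) and 5th to 95th (-0.38 to 0.30) percentiles of the 10757 well-covered genes. All 10 points lie inside the wider band and within the dashed 1.5-fold lines, and the intervals of Rnf2, Ring1 and Pcgf6 do not include 0.

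The make-up of the PCGF transcripts was close to equal in both genotypes. The summed level of the 6 PCGF genes was 68.6 RPKM in WT and 68.4 RPKM in MD43. Bmi1 held 31.5% of it in WT and 31.4% in MD43, and Pcgf2 held 24.4% in both. Together, Bmi1 and Pcgf2 held 55.8% in WT and 55.7% in MD43. Pcgf3 held 17.2% and 16.7%, Pcgf1 held 9.83% and 9.49%, and Pcgf5 held 1.61% in WT, with a difference of -0.14 percentage points in MD43. Pcgf6 had the share that differed most, 15.5% in WT and 16.6% in MD43.

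**Figure D3:**
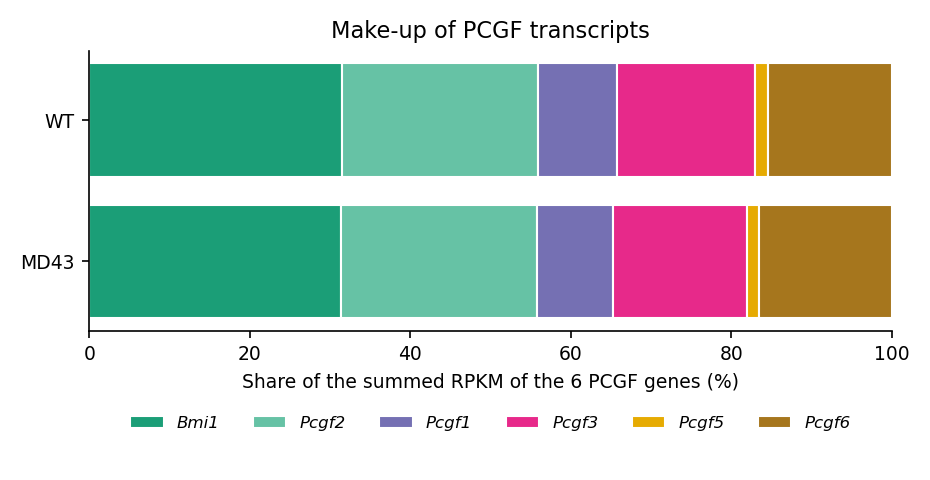
Share of the summed RPKM of the 6 PCGF genes (%, horizontal axis) held by each gene in WT and MD43, 1 merged value per genotype. Bmi1 and Pcgf2 together hold 55.8% in WT and 55.7% in MD43, and Pcgf5 is the thinnest band in both.

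Rybp and Yaf2 encode the related subunits that define variant PRC1. Their coding sequences share a longer identical run than the ligase genes do, 23 bases within 1 exon of each (chr6:100232336-100232358 and chr15:93285533-93285555, minus strand), which is still well under the 75-base word.
Rybp and Yaf2: GTCATTATCACAGACTTTAAGGA

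Rybp (ENSMUSG00000072872, chr6:100228565-100287485, minus strand) stood at 2.70 in WT (494 reads) and 2.69 in MD43 (683 reads), a difference of -0.01 ± 0.06 that was 0.07 under the correction for GC content and length. The pseudogene Rybp-ps holds 6.82% of its 75-base words. Yaf2 (ENSMUSG00000022634, chr15:93284278-93336935, minus strand) stood at 4.56 in WT (708 reads) and 4.59 in MD43 (1007 reads), a difference of 0.03 ± 0.05, and shares no 75-base word with another gene. Yaf2 was the more abundant of the pair in both genotypes, at 3.63 times the level of Rybp in WT and 3.73 times in MD43, a log2 shift of 0.04 ± 0.08. It held 78.4% of their summed RPKM in WT and 78.9% in MD43.

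**Figure D4:**
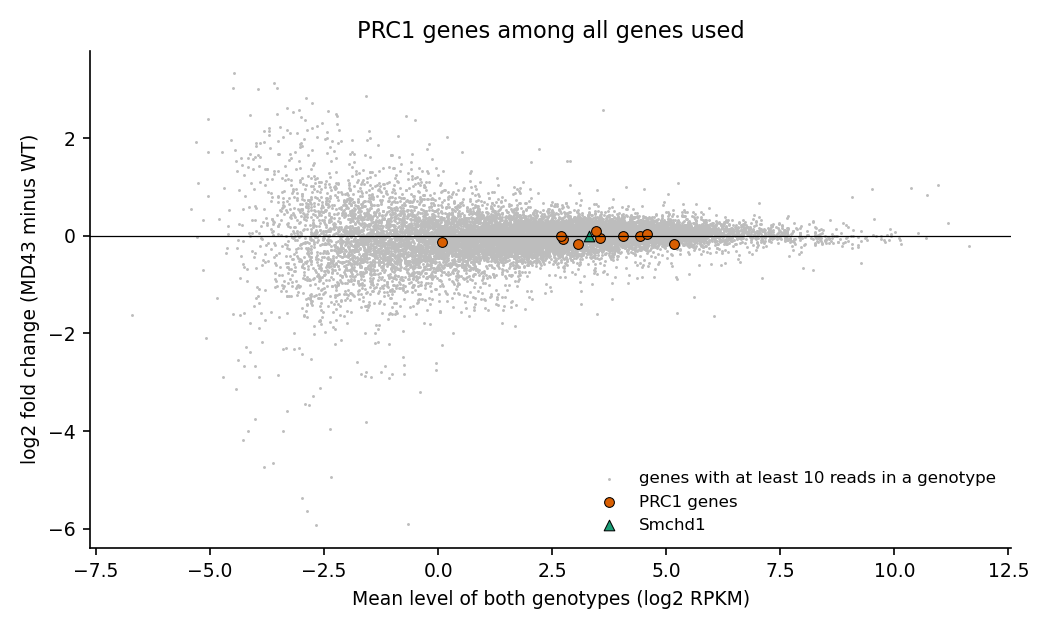
Difference of every used gene (log2 fold change, MD43 minus WT, vertical axis) against its mean level in both genotypes (log2 RPKM, horizontal axis), with the 10 PRC1 genes as filled circles and Smchd1 as a triangle. The PRC1 genes lie between -0.18 and 0.09, within the cloud of genes at their levels.

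The genes that encode the partners of these 10 proteins, and the enzymes that set or remove related marks, were counted in the same way. The 9 used partners in canonical PRC1 (CBX readers, the PHC proteins and SCMH1) had a median difference of -0.04. Cbx2, a CBX reader and the most abundant of them, stood at 5.37 and 5.50, a difference of 0.13 ± 0.02. Of the 19 used partners in variant PRC1, 0 were at least 1.5-fold higher and 1 at least 1.5-fold lower. Among all used genes these shares were 4.23% and 6.43%. The partners had a median of -0.002, and their highest difference was 0.52. The gene past 1.5-fold was Auts2, a partner of PCGF3 and PCGF5. Auts2 stood at -3.02 in WT (45.5 reads) and -3.81 in MD43 (36.5 reads), a difference of -0.79 ± 0.23. Skp1a, a subunit of the PCGF1 complex, had the highest level of the list, 7.64 and 7.66, a difference of 0.02 ± 0.02.

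No gene among the 9 that encode deubiquitinases of the PRC1 mark and their partners passed 1.5-fold, and their median was -0.01. Bap1, the catalytic subunit of the main such enzyme, stood at 5.49 and 5.58, a difference of 0.09 ± 0.02. None of the 11 PRC2 genes passed 1.5-fold either. Among all used genes, 4.23% were at least 1.5-fold higher and 6.43% at least 1.5-fold lower in MD43. Counts of 0 in lists this short lie near those shares. The median of the PRC2 genes, not corrected for GC content and length, was -0.08 beside 0.01 for all used genes. The differences of the PRC2 genes ran from -0.36 to 0.35. Rbbp4, the most abundant of these, stood at 6.36 and 6.35. Cdkn2a and Cdkn2b, cell cycle inhibitor genes that PRC1 is known to silence, had at most 0.949 reads in either genotype, too few to compare.

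Markers of the cell types that the FNP can hold were read beside these results. Among all used genes, 4.23% were at least 1.5-fold higher and 6.43% at least 1.5-fold lower in MD43. These shares were 0.576% and 1.78% among the well-covered genes. Of the 7 used red blood cell genes, 7 had higher values in MD43 and 5 were at least 1.5-fold higher, with a median of 0.84 and a summed level of 3060 RPKM in WT and 5819 RPKM in MD43. Hbb-bh1, an embryonic globin gene and the most abundant of them, was higher by 1.04 on the log2 scale, and the others past 1.5-fold were Slc4a1 (1.52), Klf1 (0.88), Hbb-y (0.84) and Hba-x (0.79). Of the 9 surface ectoderm genes, 8 were higher and 6 at least 1.5-fold higher, with a median of 0.61 and sums of 124 and 192 RPKM. The largest of these differences were those of Cldn6 (0.87), Cdh1 (0.73), Krt8 (0.70), Grhl2 (0.68) and Epcam (0.61), and Krt18, the most abundant, differed by 0.49. The 12 facial mesenchyme genes, which mark the tissue named by the labels, were present in both genotypes, with sums of 185 and 181 RPKM and a median of -0.14, and Msx1, the most abundant, differed by -0.17. The 10 forebrain genes had sums of 239 RPKM in both, a median of -0.20, and 2 genes at least 1.5-fold lower, Rax (-2.17) and Otx2 (-0.62), while Sox2, the most abundant, differed by -0.13. The 8 endothelium genes had sums of 17.5 and 16.6 RPKM, with a median of -0.08 and none past 1.5-fold, and Cldn5, the most abundant, differed by -0.11. All of the defining markers listed had reads in both genotypes. The part of these differences in the PRC1 values was not tested.

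**Figure D5:**
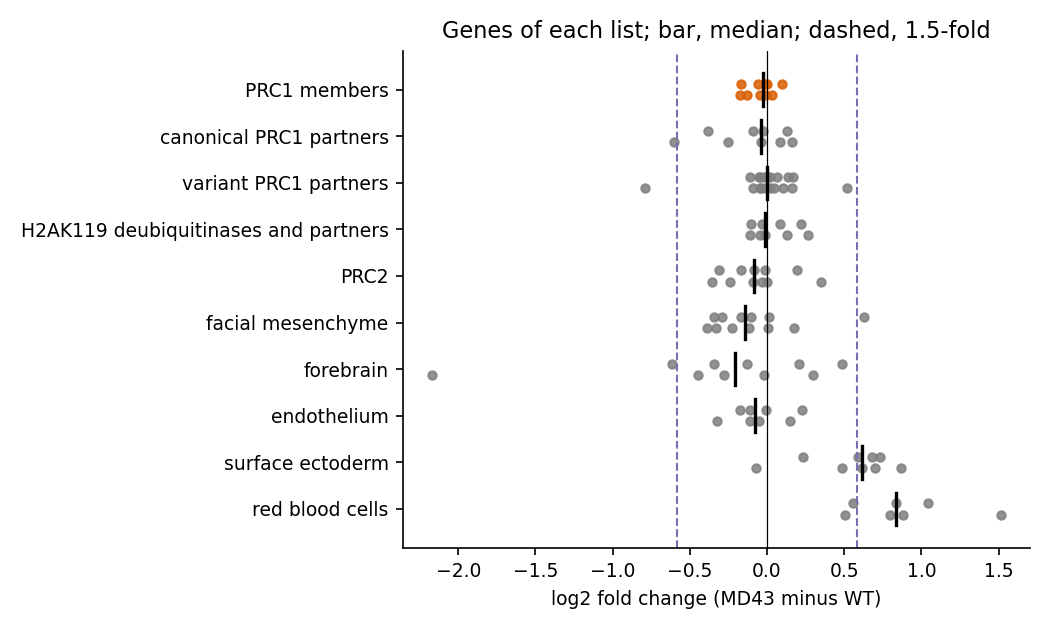
Difference of each used gene (log2 fold change, MD43 minus WT, horizontal axis) in each list, 1 point per gene, with the median as a bar and 1.5-fold as dashed lines. The 10 PRC1 genes lie between -0.18 and 0.09, whereas 6 of 9 surface ectoderm genes and 5 of 7 red blood cell genes lie past 1.5-fold higher in MD43. Among all used genes, 4.23% were at least 1.5-fold higher.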

How the data were processed

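RNA from the FNPs of 4 embryos (2 WT, 2 MD43) was sequenced from stranded poly(A) libraries. The authors trimmed the reads with Trim Galore 0.4.4 and mapped them with HISAT2 2.0.5 to GRCm38, per the submitters' processing notes, and quantified them in SeqMonk. The deposited values are log2 RPKM, which the authors scaled by library size and corrected by transcript length, in 1 merged column per genotype. How SeqMonk used strand is not given in the sources used here. Columns with the authors' fold change, FDR and mean were not used, and the table covers 19 autosomes. Every column of log2 RPKM values used here belonged to a genotype of the series.

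Rows were joined to GENCODE M21 on symbol and coordinates (33100 matched). Bcor, Fbrsl1, Hcfc1, Lcor, Rbbp7 and Ahsp of the lists had no match. A merged value was read as an average of 2 libraries on the log2 scale, a library without reads counting as 0.9 reads. The low products of reads that this gave were whole, up to the value of an empty library and within 0.02, for 99.9% in each genotype. WT replicate 2 and MD43 replicate 2 shared a mother, if the embryo IDs in the sample descriptions are read as mother and embryo number. The 4 sexes were taken from the sample labels, although a column name in the study's supplement calls WT replicate 2 female, and sex and genotype cannot be told apart in merged values.

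All 10 PRC1 genes are named, with, from each other list, the most abundant gene and up to 5 past 1.5-fold, ordered by size, and Smchd1. Some genes of the canonical PRC1 partner and facial mesenchyme lists, and the counts past 1.5-fold in these lists, are not reported here. The members and lists were chosen with earlier results of these data known. Computations used Python 3.11.15 with pandas 2.3.3 and numpy 2.4.6. As alternatives, 0.1 or 1 RPKM was added before the log, the values were centred on the used-gene median, and use was made of a quadratic correction for GC content and length, other fold thresholds and other filters on reads.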

Additional observations from a re-analysis of the deposited data

How the results depend on the processing

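With 1 merged value per genotype, leaving out each library and the replicate block were not run. No paired analysis was possible because each genotype has a single merged column in the deposited table. The count of PRC1 genes past 1.5-fold was 0 under both pseudocounts, centring, the GC content and length correction, log2 thresholds of 0.32 and 1, and both other filters on reads. Of 40 alternative values of the 10 genes, 37 stayed within the counting interval, and 3 did not, all under the GC content and length correction: Rnf2 (-0.05), Bmi1 (0.10) and Pcgf3 (0.03). That correction took up 1.39% of the variance among used genes. It also moved the shift of the Rnf2 to Ring1 ratio from -0.01 to 0.14 and that of Bmi1 to Pcgf2 from -0.01 to 0.12, and the cause was not tested. The filter of 100 reads in each genotype moved the share of genes past 1.5-fold to 0.576% higher and 1.78% lower. Level ranks with the longest transcript, an alternative chosen after seeing the data, differed from those reported for 7 of the 10 genes in WT. The depth limits Pcgf1 most, with 179 reads in WT.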
